A study of Mus musculus with 6 samples.

Results

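Latexin (Lxn), its relative Rarres1 and 8 carboxypeptidase or related genes were followed in sorted mouse bone marrow progenitors. The 10 genes were chosen by name, as the inhibitor, its paralogue and carboxypeptidases of its enzyme family, and each was read from its feature in the deposited value table. All 10 were measured, each on 1 feature of its own, among 19938 genes in all. The tested samples were 3 arrays labelled Lxn-/-, from mice that lack exons 2 to 4 of latexin and, per the labels, the protein. The comparison samples were 3 wild-type (WT) arrays with an intact latexin gene. Both groups came from C57BL/6 mice of 8 to 12 weeks labelled as female, and each sample was a pool of 10 to 20 mice with nearly 100000 cells. The cells were multipotent progenitors, sorted as lineage-negative cells positive for Sca1, c-Kit, CD34 and a marker written as Flt2. The series title and its cell number speak of long-term hematopoietic stem cells instead, and the population is named here as the sample labels give it. The labels name no promoter or cell type that limits the deletion.

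Latexin is an endogenous inhibitor of zinc-dependent carboxypeptidases of the M14 family, enzymes that remove single amino acids from the carboxyl end of peptides and proteins. In mice it is known as a negative regulator of hematopoietic stem cell number. The M14 family has a digestive and granule subfamily, to which Cpa3 and Cpa5 belong and which latexin inhibits, a regulatory subfamily that acts on hormone precursors and cell surface peptides (Cpd, Cpe, Cpm, Cpxm1), and cytosolic enzymes that remove glutamate from tubulin (Agtpbp1, Agbl5). Rarres1, also called TIG1, is a retinoic acid induced protein related to latexin in sequence, and the genes of both lie side by side on chromosome 3, on the same strand.

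Values are log2 expression values after robust multi-array averaging (RMA) by the authors, and differences are arrays labelled Lxn-/- minus WT. Levels of different genes are not read as relative amounts of RNA because probes differ in response. Percentiles and deciles of level rank features by brightness only. The differences were tested with limma over 23410 features, with Benjamini-Hochberg adjustment and a threshold of 0.05. None of the 10 genes passed, and the smallest adjusted p among them was 0.34, which was also the smallest of any feature. The background was 0.0%, since no feature passed. Of the 10 genes, 2 had an unadjusted p under 0.05, beside 14.3% of all features, so that share (Cpa5 and Cpxm1) is close to what the whole array gives. Both were lower in Lxn-/- arrays, as were 9.23% of all features at that p. With 3 arrays a group, an exact permutation test of a single gene cannot go below 0.1.

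Several properties of the arrays touch these results. Xist, the RNA of the inactive X chromosome, was at 6.86 and 5.85 in Lxn-/- arrays 1 and 3, against 13.17 in Lxn-/- array 2 and between 13.13 and 13.23 in the WT arrays, and Y-linked Eif2s3y ran the other way, so 2 arrays went against their female label. Lxn-/- array 1 also stood apart among the genes of the sort gate. Kit was at 11.48 there, against 12.15 and 12.10 in the other Lxn-/- arrays and 12.05 to 12.19 in WT. Flt3 and Cd34 were bright in all 6 arrays, but both were also lowest in Lxn-/- array 1. Flt3 was at 12.45 there against 12.68 to 12.83 elsewhere, and Cd34 at 13.33 against 13.36 to 13.48. Ly6a, which encodes Sca1, has no feature of its own here. Of 10 listed markers of mature lineages outside the gate, 7 were measured, and they averaged 7.73, 8.03 and 8.04 in Lxn-/- arrays 1, 2 and 3, against 7.87, 8.25 and 7.93 in WT arrays. That average joins opposite directions in Lxn-/- array 1. Cd3e (7.91) and Cd8a (7.34) were the highest of the 6 arrays there, while Itgam, Ly6g, Pf4, Itga2b and Cd79a were the lowest. Dim features read lower as a whole in the Lxn-/- arrays: the median difference was between -0.11 and -0.15 in the 5 lowest deciles of mean level and between 0.07 and 0.09 in the 4 highest. After the 23410 tested features were quantile-normalized again these medians lay between -0.03 and 0.01. That step gives all 6 arrays one distribution, so small medians largely follow from it. The part of these properties in the differences below was not tested.

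The deleted gene itself was read at 8.03, 8.53 and 8.61 in Lxn-/- arrays 1, 2 and 3, against 8.56, 8.70 and 8.58 in WT arrays 1, 2 and 3. Lxn-/- array 1 was low, array 2 lay just below all WT arrays, and array 3 lay inside the WT range, so the groups overlapped. The mean was 8.39 ± 0.32 in Lxn-/- arrays and 8.61 ± 0.08 in WT arrays (SD, n = 3 each), a difference of -0.22 (SE 0.15, 95% interval -0.56 to 0.12, limma adjusted p 0.459). The lower bound of that interval is a 1.47-fold lower level. Without Lxn-/- array 1 the difference was -0.04 (limma adjusted p 0.797), and without arrays 1 and 3, leaving the one array that matches its female label, it was -0.08 (limma adjusted p 0.793). The sources used here do not say where the probes of the feature lie relative to the deleted exons, so Lxn does not check the genotype of these arrays.

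The sequences ahead of the transcription starts of Lxn, Rarres1 and Cpa3 are shown because the first is the targeted gene, the next is its neighbour and the last is the gene with the widest range here. All 3 lie on the minus strand of chromosome 3, and each line gives the 250 bases before the start in RefSeq's GRCm38.p6 table, 5′ to 3′ on the gene's strand. Capitals mark GATAA (the core read by GATA factors), TATAAA or CACGTG, each searched on both strands, and no matches overlap. Lxn lies at chr3:67463908-67464157, Rarres1 at chr3:67515524-67515773 and Cpa3 at chr3:20242182-20242431.
Lxn: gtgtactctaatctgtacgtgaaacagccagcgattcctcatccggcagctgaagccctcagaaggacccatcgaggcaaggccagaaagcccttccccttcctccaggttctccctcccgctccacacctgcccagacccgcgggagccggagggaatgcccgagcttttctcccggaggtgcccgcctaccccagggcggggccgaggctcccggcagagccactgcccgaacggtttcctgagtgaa
Rarres1: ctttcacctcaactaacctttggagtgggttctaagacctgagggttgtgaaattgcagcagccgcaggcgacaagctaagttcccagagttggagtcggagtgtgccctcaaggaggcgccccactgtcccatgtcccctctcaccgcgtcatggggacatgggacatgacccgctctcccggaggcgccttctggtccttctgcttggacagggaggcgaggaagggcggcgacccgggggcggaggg
Cpa3: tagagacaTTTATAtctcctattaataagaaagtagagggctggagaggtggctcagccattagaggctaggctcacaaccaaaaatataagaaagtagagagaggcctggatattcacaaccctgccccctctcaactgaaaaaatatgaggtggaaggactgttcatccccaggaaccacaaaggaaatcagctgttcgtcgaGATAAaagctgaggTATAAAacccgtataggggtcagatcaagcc
The Lxn window holds 16 CG dinucleotides and the Rarres1 window 14, against 3 in the Cpa3 window and a median of 6 over all 32851 windows in the table. None of the 3 motif strings is in the Lxn or Rarres1 window. The Cpa3 window holds 1 GATAA and 2 TATAAA strings. Of all windows of this length, 22.6% hold GATAA, 12.4% TATAAA and 6.0% CACGTG, so these matches describe the letters only.

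Rarres1 was dim and nearly even across arrays. It was at 5.26, 5.48 and 5.38 in Lxn-/- arrays 1, 2 and 3, against 5.41, 5.51 and 5.44 in WT arrays 1, 2 and 3. The groups overlapped, and its mean level sat at percentile 7.6 of all tested features. The difference was -0.08 (SE 0.09, limma adjusted p 0.627), beside a median of -0.11 for features in the same decile of level, and it was 0.03 after renewed quantile normalization.

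**Figure D1:**
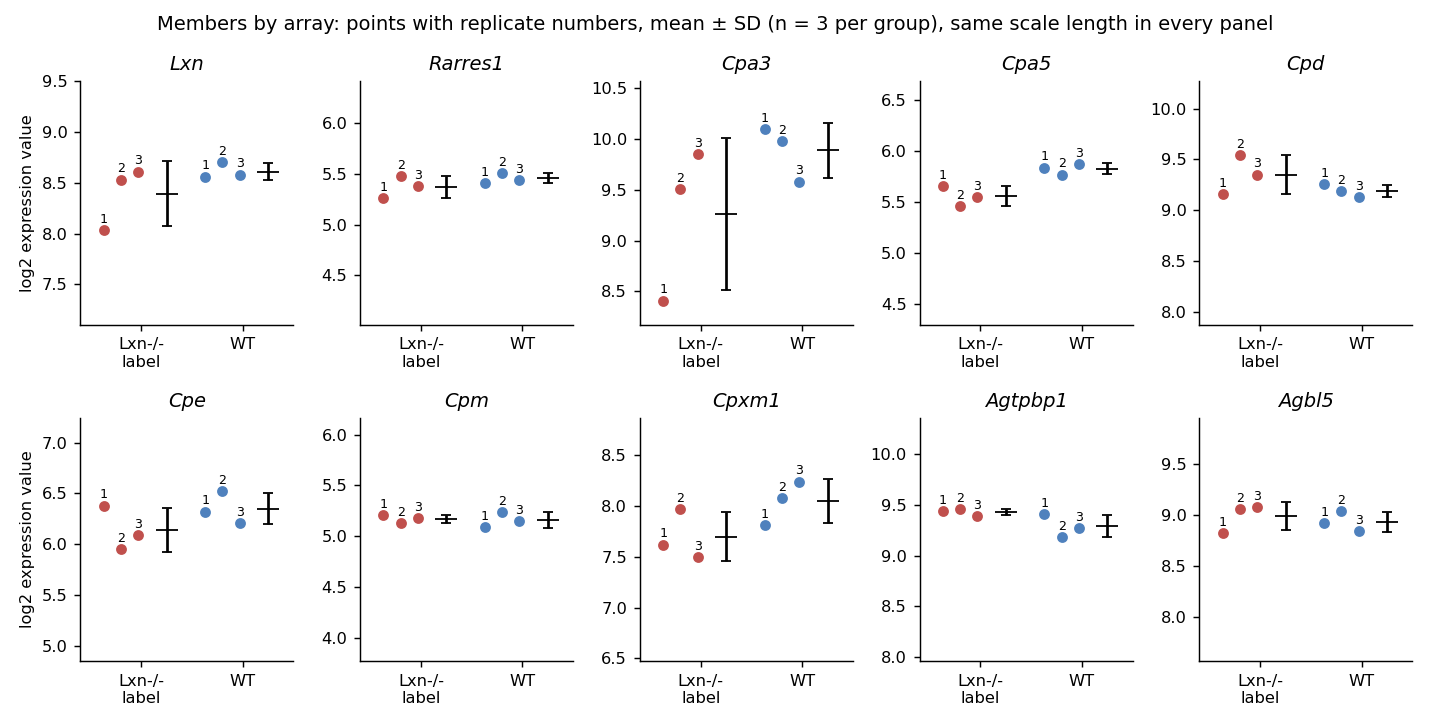
Log2 expression value (y axis) of each of the 10 genes in the 3 arrays labelled Lxn-/- (left, red) and the 3 WT arrays (right, blue), with replicate numbers beside the points and the mean ± SD as bars; every panel spans the same number of log2 units. Lxn-/- array 1 is the lowest of the 6 arrays for Lxn, Rarres1, Cpa3 and Agbl5, and Cpa5 is the one gene whose groups do not overlap.

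Of the enzymes, Cpa3 differed most in size. It encodes the mast cell carboxypeptidase, a granule protease stored with chymases and tryptases. Cpa3 was at 8.41, 9.51 and 9.85 in Lxn-/- arrays 1, 2 and 3, against 10.10, 9.98 and 9.58 in WT arrays 1, 2 and 3. Lxn-/- arrays 1 and 2 lay below all WT arrays, array 3 lay inside the WT range, and array 1 alone was more than 1 log2 unit below every other array. The mean was 9.26 ± 0.75 in Lxn-/- arrays and 9.89 ± 0.27 in WT arrays (SD, n = 3 each). The difference of -0.63 (SE 0.32, 95% interval -1.35 to 0.09) had a limma adjusted p of 0.374. Its range over the 6 arrays, 1.69 log2 units, was at percentile 99.3 of all features. Without Lxn-/- array 1 the difference was -0.21, and without arrays 1 and 3 it was -0.37 (limma adjusted p 0.455 and 0.443). Cpa3 belongs to a decile of features whose median difference was 0.09, so it ran against the drift of features of its brightness.

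Other genes of mast cells and basophils were set beside Cpa3, and some of them shared its low value in Lxn-/- array 1. Of 14 listed genes beside Cpa3, 13 were measured, and 11 had a lower mean in Lxn-/- arrays, beside 58.9% of all genes. Their median difference was -0.229, beside -0.043 over all genes. In 5 of the 13 the Lxn-/- arrays lay entirely below the WT arrays, beside 13.0% of all features, and none passed the adjusted threshold in limma. Of the 13, 7 were below the median level, where features read lower as a whole. After renewed quantile normalization 11 of the 13 were lower, at a median of -0.199 beside -0.01 over all genes. The list averaged 7.68, 8.04 and 8.12 in Lxn-/- arrays 1, 2 and 3, against 8.30, 8.31 and 8.14 in WT arrays 1, 2 and 3. Without Lxn-/- array 1, 10 of the 13 were still lower, at a median of -0.17 beside -0.034 over all genes. In Lxn-/- array 1, 6 of the 13 lay more than 0.5 below the WT mean (Prss34, Mcpt8, Ms4a2, Gata2, Hdc and Fcer1a), 4 lay inside the WT range, and array 1 was the highest Lxn-/- array for Cma1, Tpsab1 and Mrgprb1. Since each array reads a pool of cells, fewer mast cell or basophil precursors and less RNA per cell cannot be told apart.

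Prss34, a basophil serine protease gene, was at 9.07, 10.51 and 10.53 in Lxn-/- arrays 1, 2 and 3, against 11.11, 11.06 and 10.98 in WT arrays. The groups did not overlap, and the difference was -1.02 (SE 0.33, limma adjusted p 0.34), or -0.53 without Lxn-/- array 1. Mcpt8, the basophil protease mMCP-8 gene, was at 9.57, 10.48 and 10.70 in Lxn-/- arrays, against 11.02, 11.06 and 10.84 in WT arrays, with a difference of -0.72 (SE 0.25, limma adjusted p 0.34), or -0.38 without Lxn-/- array 1. Gata2, a transcription factor gene of stem cells and mast cells, also did not overlap, with 9.05 to 9.83 in Lxn-/- arrays and 9.90 to 10.25 in WT arrays. The mature connective tissue mast cell protease genes were dim in every array, with Mcpt4 at 5.05 to 5.35 in Lxn-/- arrays and 5.17 to 5.37 in WT arrays. Mcpt4, Cma1 and Tpsab1 overlapped between groups. Tpsb2 did not, at 6.67 to 6.71 in Lxn-/- arrays and 6.84 to 6.93 in WT arrays. Its difference was -0.18, beside a median of -0.15 for features of its decile. The dim list gene Mrgprb1 did not overlap either, at 4.83 to 5.15 in Lxn-/- arrays and 5.17 to 5.39 in WT arrays. It differed by -0.29, beside a decile median of -0.11. Prss34, Mcpt8 and Gata2 lay in deciles with a median of 0.09. Srgn, the granule proteoglycan gene, was at 13.62 to 13.69 in Lxn-/- arrays and 13.51 to 13.67 in WT arrays, and Mitf ran slightly the other way at 0.11 (SE 0.15).

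**Figure D2:**
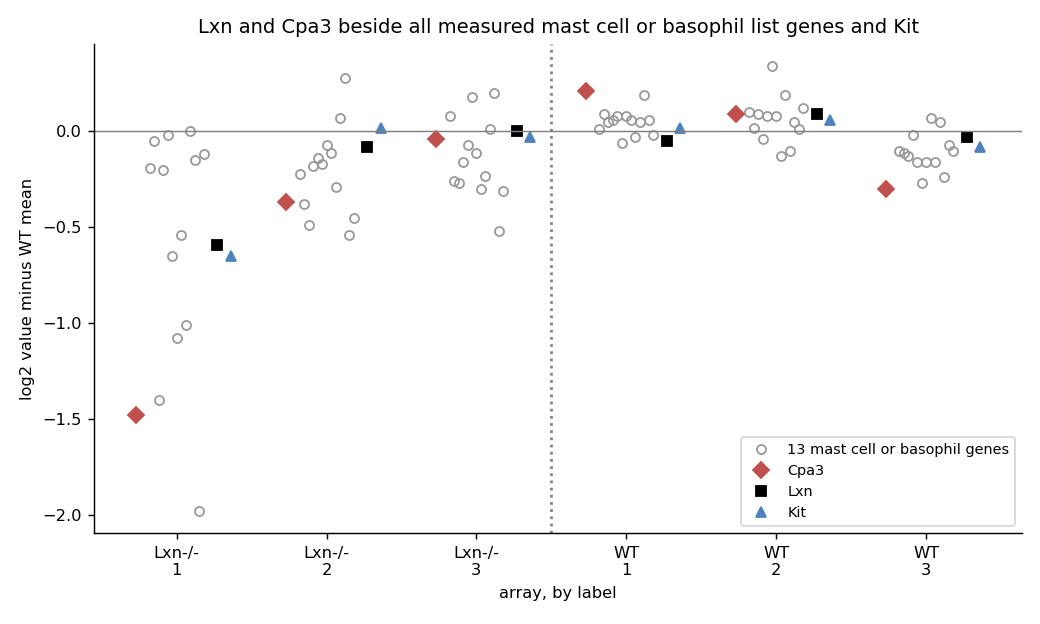
Log2 value minus the WT mean (y axis) of Cpa3, Lxn, Kit and all 13 measured genes of the mast cell and basophil list (open circles) in each array (x axis), Lxn-/- arrays left of the dotted line and WT arrays right of it. In Lxn-/- array 1 Cpa3 lies at -1.48, Lxn at -0.59 and Kit at -0.65, while the 13 list genes spread from -1.98 to 0.0.

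Closeness of profile was measured as the root mean square distance between mean-centred log2 values over the 6 arrays, among all genes with a feature of their own. The 3 genes closest to Lxn were Plcb2 on chromosome 2 (distance 0.02), Peli2 on chromosome 14 and Csgalnact1 on chromosome 8 (0.03 each), beside a median distance of 0.25. All 3 were low in Lxn-/- array 1, as with Plcb2 at 11.14, 11.72 and 11.77 in Lxn-/- arrays against 11.71, 11.86 and 11.70 in WT arrays. The genes closest to Cpa3 were Mcpt8 (0.14), Ssxb10 on the X chromosome and Dach1 on chromosome 14 (0.19 each), beside a median of 0.57. Dach1, a transcription factor gene, was at 7.96, 8.85 and 9.11 in Lxn-/- arrays against 9.02, 9.10 and 8.79 in WT arrays. These distances describe 6 arrays that share one low array, and carry no test.

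Cpa5, the other member of the digestive and granule subfamily, was the one gene of the 10 with no overlap between the groups. It was at 5.66, 5.46 and 5.55 in Lxn-/- arrays 1, 2 and 3, against 5.84, 5.77 and 5.87 in WT arrays 1, 2 and 3. A complete separation of this kind, in either direction, was seen in 21.6% of all features. The mean was 5.56 ± 0.10 in Lxn-/- arrays and 5.83 ± 0.05 in WT arrays (SD, n = 3 each), a difference of -0.27 (SE 0.09, 95% interval -0.47 to -0.07, limma adjusted p 0.34). The exact two-sided permutation p was 0.1, the smallest that 3 against 3 allows. Cpa5 was dim, at percentile 10.5, and features of its decile had a median difference of -0.14. The difference was -0.32 without Lxn-/- array 1, -0.36 without arrays 1 and 3, and -0.15 after renewed quantile normalization.

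The regulatory enzyme genes differed from each other in direction. Cpxm1 encodes a secreted family member that lacks residues needed for catalysis. It was at 7.62, 7.97 and 7.50 in Lxn-/- arrays 1, 2 and 3, against 7.81, 8.08 and 8.24 in WT arrays, so arrays 1 and 3 lay below WT and array 2 within it. The difference was -0.35 (SE 0.15, 95% interval -0.69 to -0.01, limma adjusted p 0.344). Here the low arrays were the 2 with Y-linked signal, and without them, with 1 Lxn-/- array left, the difference was -0.07. It was -0.31 without Lxn-/- array 1 alone, and -0.25 without Lxn-/- array 3 or without WT array 3. Leaving out Lxn-/- array 2 gave -0.48, and leaving out WT array 1 gave -0.47. A link to the Y-linked signal was not tested.

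Cpe, the carboxypeptidase that trims hormone and neuropeptide precursors, differed from Cpxm1 in which arrays were low. It was at 6.38, 5.95 and 6.09 in Lxn-/- arrays 1, 2 and 3, against 6.32, 6.52 and 6.21 in WT arrays. Array 1 lay inside the WT range and arrays 2 and 3 below it, and the difference of -0.21 (SE 0.13, limma adjusted p 0.434) was -0.33 without Lxn-/- array 1 and -0.40 without arrays 1 and 3, but -0.11 without Lxn-/- array 2 and -0.13 without WT array 2. Features as dim as Cpe had a median of -0.14, and renewed quantile normalization left -0.07.

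Cpd, a membrane enzyme of the trans-Golgi that acts after furin-type proteases, was higher on average. It was at 9.16, 9.54 and 9.35 in Lxn-/- arrays 1, 2 and 3, against 9.26, 9.19 and 9.13 in WT arrays, with array 1 inside the WT range. The difference of 0.16 (SE 0.11, limma adjusted p 0.479) was 0.25 without Lxn-/- array 1 and 0.35 without arrays 1 and 3, but 0.06 without Lxn-/- array 2 and 0.08 after renewed quantile normalization. Cpm, an enzyme anchored to the cell surface and known from maturing macrophages, was dim and even, at 5.21, 5.13 and 5.18 in Lxn-/- arrays against 5.09, 5.24 and 5.15 in WT arrays. Its difference was 0.01 with a 95% interval of -0.18 to 0.21 (limma adjusted p 0.937).

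The tubulin deglutamylase genes had the smallest ranges over the 6 arrays, 0.27 and 0.26 log2 units, among the 6 of the 10 genes above the median level. Agtpbp1 encodes CCP1, whose loss causes Purkinje cell degeneration in mice, and was at 9.44, 9.46 and 9.39 in Lxn-/- arrays 1, 2 and 3, against 9.41, 9.18 and 9.27 in WT arrays. The Lxn-/- values were tightly grouped and reached down into the WT range, with a difference of 0.14 (SE 0.09, limma adjusted p 0.447). It lay between 0.09 (without WT array 2) and 0.20 (without WT array 1) when single arrays were left out, and was 0.06 after renewed quantile normalization, beside a median of 0.09 for features of its decile. Agbl5 encodes CCP5, which removes the glutamate at branch points, and was at 8.82, 9.06 and 9.08 in Lxn-/- arrays against 8.92, 9.04 and 8.84 in WT arrays. Its difference was 0.05 (SE 0.10, 95% interval -0.18 to 0.29, limma adjusted p 0.795).

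**Figure D3:**
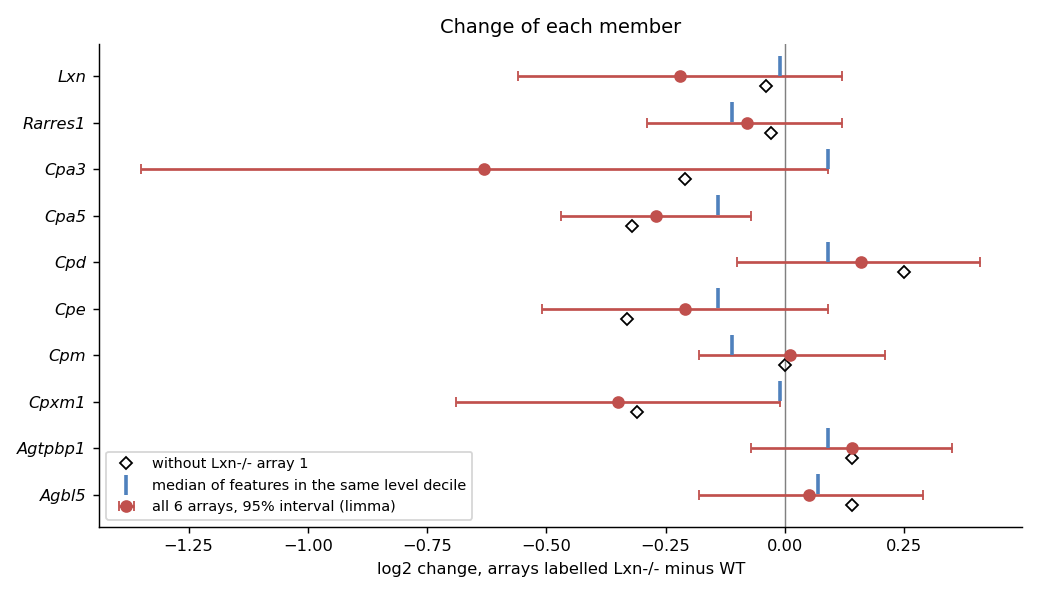
Log2 change of each gene (x axis, arrays labelled Lxn-/- minus WT) with its 95% interval from limma over all 6 arrays (red), without Lxn-/- array 1 (open diamonds), and the median of all features in the same decile of mean level (blue ticks). Intervals of Cpa5 and Cpxm1 stay below 0, Cpa3 has the widest interval, and its value is -0.63 with and -0.21 without Lxn-/- array 1.

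The remaining genes of the M14 family were looked at as a list of 14, of which 12 were measured. All 12 had a lower mean in Lxn-/- arrays, with a median of -0.1 beside -0.043 over all genes, where 58.9% of genes were lower. All 12 were also dimmer than the median feature, and after renewed quantile normalization 3 of the 12 were lower, with a median of 0.022. Direction in this list therefore turned with the scaling. The groups did not overlap in 3 of the 12 (Agbl1, Cpa1 and Cpz), all lower in Lxn-/- arrays, beside 13.0% of all features. For Cpa1 and Cpz the gap was smaller than the printed precision. Lxn-/- array 1 and WT array 1 both read 6.80 for Cpa1 and 6.86 for Cpz. Agbl1, a further tubulin deglutamylase gene, had the largest statistic, at 6.26, 6.16 and 6.09 in Lxn-/- arrays against 6.30, 6.52 and 6.40 in WT arrays, a difference of -0.24 (SE 0.09, limma adjusted p 0.34). Cpa1, a pancreatic digestive enzyme gene, followed with -0.18 (SE 0.09, limma adjusted p 0.387), or -0.11 without WT array 2.

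**Figure D4:**
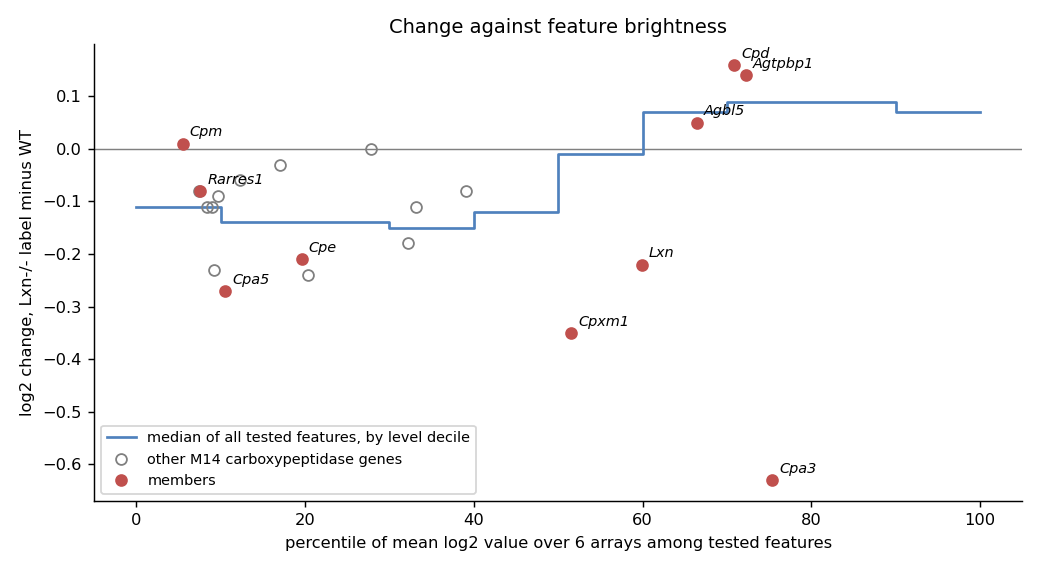
Log2 change (y axis, arrays labelled Lxn-/- minus WT) against the percentile of mean log2 value over the 6 arrays (x axis) for the 10 genes (red), the 12 other M14 carboxypeptidase genes (open) and the median of all tested features in each decile of level (blue line). The dim genes lie around the blue line, which runs at -0.11 to -0.15 there, while Cpa3, Cpxm1 and Lxn lie below it.

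Genes of the surrounding pathways were set beside the 10, and none passed in limma. Over all genes, 58.9% were lower in Lxn-/- arrays. Carboxypeptidases of other families, which are mostly lysosomal, split 5 higher to 4 lower of 9 measured. Scpep1, a serine carboxypeptidase gene, was at 10.00, 10.14 and 10.20 in Lxn-/- arrays against 9.75, 9.72 and 9.98 in WT arrays, a difference of 0.30 (SE 0.10, limma adjusted p 0.34). Ace, the angiotensin-converting enzyme gene, differed by -0.25 (SE 0.10, limma adjusted p 0.341). Among 12 measured genes of cystatins, fetuins and metalloprotease inhibitors, 5 were higher and 7 lower in Lxn-/- arrays. Cst7, the cystatin F gene, was at 11.48, 10.49 and 11.18 in Lxn-/- arrays against 10.48, 10.61 and 10.31 in WT arrays. Its arrays 1 and 3 were the high ones, and the difference was 0.58 with all arrays (SE 0.22, limma adjusted p 0.34). It was 0.37 without Lxn-/- array 1 and 0.03 without arrays 1 and 3 (limma adjusted p 0.945). Without Lxn-/- array 2, which leaves the 2 arrays with Y-linked signal and a fit in which 145 features pass, it was 0.86 (limma adjusted p 0.0143). Timp1, a metalloprotease inhibitor gene on the X chromosome, differed by -0.32 (SE 0.16, limma adjusted p 0.372), or -0.14 without WT array 2.

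For the enzymes that add glutamate, glycine or tyrosine to tubulin or remove tyrosine, together with their partner Svbp, 6 of 15 measured genes were higher and 9 lower, with a median of -0.032. After renewed quantile normalization 5 of the 15 were lower, with a median of 0.022, so the more frequent direction turned with the scaling. Ttll6, a polyglutamylase gene, differed by -0.23 (SE 0.11, limma adjusted p 0.357; -0.15 without WT array 2) and Ttl, the tubulin tyrosine ligase gene, by 0.18 (SE 0.09, limma adjusted p 0.385). Proprotein convertases and their partners, which act ahead of Cpd and Cpe, gave 4 higher and 6 lower of 10. Scg5, the chaperone gene of the convertase PC2, differed by -0.36 (SE 0.13, limma adjusted p 0.34; -0.23 without WT array 2), and Pam, of the amidation step after Cpe, by 0.19 (SE 0.10, limma adjusted p 0.369). In the retinoic acid pathway, from which Rarres1 takes its name, 13 of 15 were lower at a median of -0.089, beside 58.9% of all genes and -0.043. After renewed quantile normalization 10 of 15 were lower, beside 10605 of 19938 genes. Of the 15, 9 were below the median level, where features read lower as a whole. Tgm2, a transglutaminase gene induced by retinoic acid, differed by -0.54 (SE 0.12) and Stra6, a retinol uptake receptor gene, by -0.24 (SE 0.09), each with a limma adjusted p of 0.34.

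On chromosome 3, Lxn lies within Gfm1, a mitochondrial translation factor gene on the opposite strand, with Rarres1 next to it. Gfm1 was at 9.80, 9.31 and 9.39 in Lxn-/- arrays against 9.06, 9.03 and 9.21 in WT arrays. The Lxn-/- arrays all lay above the WT arrays, which 8.54% of features do, and the difference was 0.40 (SE 0.13, limma adjusted p 0.34). It was 0.25 without Lxn-/- array 1 and 0.20 without arrays 1 and 3. Of the nearest measured genes beyond Rarres1, Mfsd1, a lysosomal transporter gene, was between 10.46 and 10.57 in Lxn-/- arrays and between 10.44 and 10.57 in WT arrays, and Il12a differed by 0.13 (SE 0.15), or 0.32 without Lxn-/- array 1. On the other side of Gfm1, Mlf1 differed by -0.16 (SE 0.09), the splicing gene Rsrc1 by 0.34 (SE 0.14, and 0.17 without WT array 2, its lowest array) and the dim homeobox gene Shox2 by -0.27 (SE 0.10). Among the 17 genes around Lxn, Rarres1 included, 11 were higher and 6 lower in Lxn-/- arrays, beside 8204 higher of 19938 genes in all. Of those higher, Tiparp, Ccnl1, Rsrc1, Gfm1, Il12a, Ift80 and Smc4 lay in level deciles whose median difference was 0.07 or 0.09. Lekr1, 1110032F04Rik, Mir15b and Mir16-2 lay in deciles with medians of -0.01 to -0.14. The groups did not overlap in 4 of the 17, beside 21.6% of all features.

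**Figure D5:**
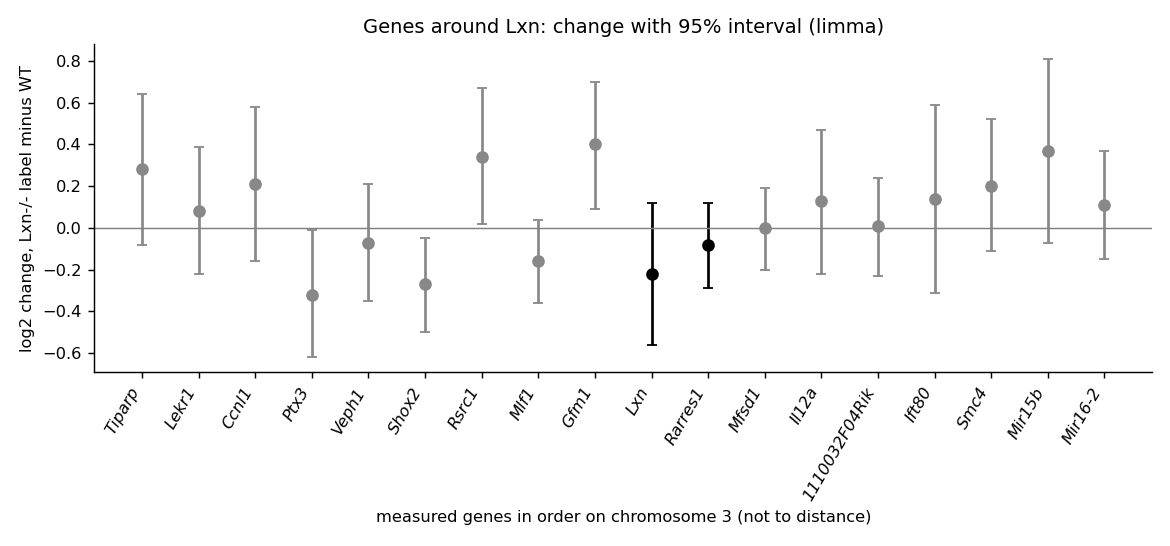
Log2 change (y axis, arrays labelled Lxn-/- minus WT) with the 95% limma interval for Lxn, Gfm1 that overlaps it, and the 8 measured genes on each side in their order on chromosome 3 (x axis, not to distance). Lxn at -0.22 and Rarres1 at -0.08 (black) have intervals that include 0, and Gfm1 at 0.40 is the highest of the genes drawn.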

How the data were processed

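RNA of sorted progenitors was labelled from 100 ng and read on Affymetrix MoGene 1.0 ST arrays, per the labels. The authors deposited 1 table of log2 values for 35557 features, and the series text names RMA as the normalization. RMA and Partek 6.0 are named in the submitters' processing notes. The log2 scale was inferred from the values (2.65 to 14.78). The sources used here do not give the background and summary settings, scan dates, probe positions or genome build, and the 6 arrays limit the precision.

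Groups and replicate numbers came from the sample titles, and each array is a separate pool of mice. The platform's probe-to-gene table gives 1 symbol for 21789 features (21698 matched in the GRCm38.p6 gene table) and several for 1621, and these 23410 features were tested with limma 3.58.1 in R 4.3.3 (lmFit, eBayes, two-sided, Benjamini-Hochberg adjustment). A gene stands on its brightest feature. The fit was checked on simulated arrays with independent normal noise. These hold no outlying array and no shift with level, so the check does not cover the array properties described above. The genes and lists were chosen with earlier results of these data known, so no count over a list is a test. Of each list the 2 genes with the largest moderated statistic are named, with the neighbours of Lxn and the 3 closest profiles to Lxn and Cpa3. Further mast cell and basophil genes, Cpz and the farther genes around Lxn were named after their values were seen. Same-numbered arrays did not deviate together (correlations 0.08, -0.01 and -0.01 over features), so the numbers were not treated as pairs. The alternatives were the replicate block, each array left out, Lxn-/- arrays 1 and 3 left out, quantile normalization, median centring, brighter features only, trend and robust eBayes, array weights, all rows, a two-sample test and the mean of a gene's features. Figures were drawn with matplotlib 3.10.9.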

Additional observations from a re-analysis of the deposited data

How the results depend on the processing

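None of the 10 genes passed under any of the 16 alternatives, all fitted with limma except the two-sample test. The smallest adjusted p was 0.111 (Cpa5, limma with array weights). The Lxn difference ranged from -0.33 to -0.04 over the alternatives (adjusted p 0.421 to 0.797, both ends from limma). In 150 of 156 combinations of gene and alternative the direction held. The 6 others were Rarres1 at 0.02 without Lxn-/- arrays 1 and 3 and 0.03 after quantile normalization, Agbl5 at -0.01 after quantile normalization, and Cpm at -0.0036 without Lxn-/- array 1, -0.02 without WT array 1 and -0.03 without Lxn-/- arrays 1 and 3 (up to 0.06 when WT array 2 was left out). Of the other named genes, Kit turned to 0.02 without Lxn-/- arrays 1 and 3, Dach1 to 0.01 without Lxn-/- array 1 (down to -0.56 without Lxn-/- array 3), and Mfsd1 to 0.05 without Lxn-/- arrays 1 and 3, 0.05 after median centring, 0.01 with array weights, and 0.01 to 0.03 on leaving out WT array 1, WT array 2 or Lxn-/- array 3. Features passing numbered 0 with all arrays (3346 at an unadjusted p under 0.05, and 0 by the two-sample test), 1 with the replicate number as a block, 3 without Lxn-/- arrays 1 and 3, and 0 to 145 when 1 array was left out, the highest without Lxn-/- array 2. The block made no call among the 10 genes. Features at an unadjusted p under 0.05 in limma numbered 5541 without Lxn-/- array 1 and 1628 without Lxn-/- array 3. With array weights, where Lxn-/- array 1 weighed least (0.36), they numbered 5614. The cause of these differences was not tested. With Lxn-/- arrays 1 and 3 left out, the lone Lxn-/- array is assumed to vary like the WT arrays. The members each have 1 feature, so averaging features moved only the adjustment.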
